A study of Mus musculus with 8 samples.

Results

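The genes of the MHC class I presentation machinery were described in D2A1 mouse mammary carcinoma cells and in the metastatic sublines D2A1-m1 and D2A1-m2. The set holds 10 genes, namely Tap1, Tap2, Tapbp, B2m, Psmb8, Psmb9, Psmb10, Erap1, H2-K1 and H2-D1. A probe belonged to it where the array's annotation gave one of these symbols, and it was kept where it was detected (detection p of at most 0.01, a test against the array's negative control beads) on at least 1 array. Of the 45281 probes on the array 22 carried one of the 10 symbols, and 18 of these were kept. Every gene had at least 1 kept probe, and 9017 genes were tested in all.

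Gene expression was measured with Illumina MouseWG-6 v2.0 bead arrays, 1 for each of 8 cultures. There were 2 cultures of D2A1-m1, 3 of D2A1-m2 and 3 of the parental D2A1 line, all BALB/c-derived, untreated in the labels and grown in vitro. For each subline, parental cells had been implanted orthotopically in a BALB/c mouse with an intact immune system, tumour cells from its lungs were cultured, and these went through further rounds of tail vein injection and recovery from lungs. Each subline was therefore the outcome of 1 selection, and cultures of it are replicates of that line and not of the selection. Batch 1 held D2A1-m1 replicate 1, D2A1-m2 replicate 1 and D2A1 replicates 1 and 2, and batch 2 held D2A1-m1 replicate 2, D2A1-m2 replicates 2 and 3 and D2A1 replicate 3.

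MHC class I molecules carry short peptides from proteins made inside a cell to its surface, where CD8+ T cells read them. The proteasome cuts the proteins, and in cells exposed to interferon its catalytic subunits are exchanged for those encoded by Psmb8, Psmb9 and Psmb10, which form the immunoproteasome. The TAP transporter, a dimer of the Tap1 and Tap2 products, moves the peptides into the endoplasmic reticulum, where the Erap1 aminopeptidase trims them and tapasin, the product of Tapbp, holds the empty class I molecule next to TAP. A class I molecule consists of a polymorphic heavy chain, such as those of H2-K1 and H2-D1, and the invariant light chain beta-2 microglobulin, encoded by B2m. Many of these genes are induced together by interferons, in part through Irf1, and by the class I transactivator Nlrc5, and low class I expression is a known trait of tumours that escape T cells.

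Of the 10 genes 7 lie on mouse chromosome 17, and B2m, Psmb10 and Erap1 lie on chromosomes 2, 8 and 13. In the RefSeq annotation H2-DMb1, Psmb9, Tap1, Psmb8, Tap2 and H2-Ob follow one another in this order. Psmb9 and Tap1 are read in opposite directions from a common start region, so the windows of 250 bases before and 50 after their starts shared 275 bases. Promoter sequence is shown for the genes with an X2 core, a kappaB site or an interferon-stimulated response element core, motifs of the class I regulators, from RefSeq on GRCm38.p6 and read 5′ to 3′ on the gene's strand. This reference is of C57BL/6, whose MHC haplotype differs from that of BALB/c. Capitals mark matches on either strand to AAANNGAAA (core of the interferon-stimulated response element), GGGNNTTCC (kappaB site), TGACG (core of the X2 box) and CCAAT (Y box), the last also read as ATTGG, and no matches overlapped. The windows lie at chr17:34187306-34187580 (+ strand), chr2:122147537-122147686 (+), chr17:34000323-34000470 (-), chr17:35262911-35263057 (+) and chr13:74639837-74639869 (+), in the order shown.
Psmb9-Tap1 shared window: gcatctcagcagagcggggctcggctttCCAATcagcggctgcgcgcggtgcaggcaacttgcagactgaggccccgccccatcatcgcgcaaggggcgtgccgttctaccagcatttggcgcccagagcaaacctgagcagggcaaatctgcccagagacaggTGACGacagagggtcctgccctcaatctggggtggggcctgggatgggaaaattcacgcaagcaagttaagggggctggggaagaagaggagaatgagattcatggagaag
B2m: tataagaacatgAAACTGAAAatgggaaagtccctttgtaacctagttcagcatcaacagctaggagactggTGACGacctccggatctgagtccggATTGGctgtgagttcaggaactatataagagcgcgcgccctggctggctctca
H2-K1: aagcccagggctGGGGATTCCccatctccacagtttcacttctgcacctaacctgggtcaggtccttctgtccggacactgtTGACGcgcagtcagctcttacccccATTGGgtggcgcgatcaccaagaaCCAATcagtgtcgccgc
H2-D1: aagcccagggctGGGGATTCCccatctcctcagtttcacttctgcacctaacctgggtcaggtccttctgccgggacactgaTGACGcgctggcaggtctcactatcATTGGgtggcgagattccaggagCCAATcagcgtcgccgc
Erap1: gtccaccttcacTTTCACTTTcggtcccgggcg

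Windows were found for 9 of the 10 genes. The X2 core was present in 5 of 9 (Tap1, Psmb9, B2m, H2-K1 and H2-D1), against 20.8% of 32851 promoter windows of the same length, and for Tap1 and Psmb9 it is the same match. The Y box was present in 6 of 9 (these 5 and Tapbp), against 37.4% of all windows, and for Tap1 and Psmb9 it is again the same match. A kappaB match stood in the H2-K1 and H2-D1 windows, against 5.82% of windows, and 214 of 239 aligned bases (89.5%) of these 2 windows were identical. An exact match to the interferon-stimulated response element core was found for B2m and Erap1 (10.6% of all windows). The H2-K1 and H2-D1 windows hold tttcacttc, which differs from a match on the other strand only in its last base. Near matches were not counted, so a window without a match may still hold such an element. The matches are descriptions of the reference letters, and binding was not measured.

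The arrays differed between batches. The number of probes detected was 13618 to 14625 on D2A1-m1 arrays, 13768 to 14942 on D2A1-m2 arrays and 13419 to 14387 on D2A1 arrays. With the lines accounted for, 784 genes differed between batches, and none of the 10 was among them. The nearest was Psmb9, with a log2 difference of -0.40 in batch 2 against batch 1 (adjusted p = 0.0303 by limma), under 1.5-fold. D2A1-m2 replicate 1, the D2A1-m2 array of batch 1, stood apart from replicates 2 and 3 in these genes, as the values below show, so calls that change without it are given beside the gene. Levels are log2 normalized intensities, and each gene's value is that of its kept probe with the widest interquartile range. Levels of different probes cannot be set against each other. In a bulk culture fewer cells that express a gene and less RNA per cell cannot be told apart.

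In D2A1-m1 cells most of the class I presentation genes lay above D2A1, while D2A1-m2 cells showed no common direction against D2A1 and lay below D2A1-m1. Against D2A1, 9 of 10 genes had a positive difference in D2A1-m1, with a median of 0.44 (log2), and 6 of 10 in D2A1-m2, with a median of 0.00. Between the sublines all 10 differences were positive, that is, higher in D2A1-m1, with a median of 0.41. Over all 9017 genes 50.7%, 49.7% and 52.0% of differences were positive in these comparisons, and the medians were 0.01, 0.00 and 0.01. The comparisons share arrays, so these counts are not independent of each other. Tap1, Psmb9 and Erap1 were not detected in every line, and Psmb9 and Erap1 passed the detection filter only through D2A1-m1 arrays. Of the 7 genes detected in every line 6 were positive in D2A1-m1 against D2A1 (median 0.41), 5 in D2A1-m2 against D2A1 (median 0.01) and 7 between the sublines (median 0.41).

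Few of the differences passed the test. A gene was called where the adjusted p was under 0.05 over all genes tested and the difference was at least 1.5-fold. In D2A1-m1 against D2A1 1 of 10 genes was called (Tapbp, higher), against 14.6% of all genes called in either direction. In D2A1-m2 against D2A1 1 of 10 was called (Psmb10, lower), against 16.2% of all genes, and between the sublines 1 of 10 (Psmb9, higher in D2A1-m1), against 4.27%. Since Psmb9 was kept only because both D2A1-m1 arrays detected it, its call is given as a description. None of the 7 genes detected in every line was called between the sublines. Of these 3 had an unadjusted p under 0.05 by limma, against 20.7% of all genes. The counts of called genes are therefore near the background of all genes in both comparisons with D2A1. By the probe used for each gene, the arrays of D2A1-m1 and D2A1 did not overlap for 5 of the 10 genes (B2m, Psmb8, Psmb9, Erap1 and H2-K1), all higher in D2A1-m1, against 19.6% of all genes that lay wholly higher. The other kept probes of B2m and H2-K1 did overlap between these lines. Those of D2A1-m1 and D2A1-m2 did not overlap for 7 (all but Tap2, B2m and H2-D1), all higher in D2A1-m1, against 14.4%. The arrays of D2A1-m2 and D2A1 did not overlap for 1, Psmb10, which was lower (18.0% of all genes). The other kept Psmb10 probe did overlap between these lines. Over the 7 genes detected in every line these counts were 3, 4 and 1.

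**Figure D1:**
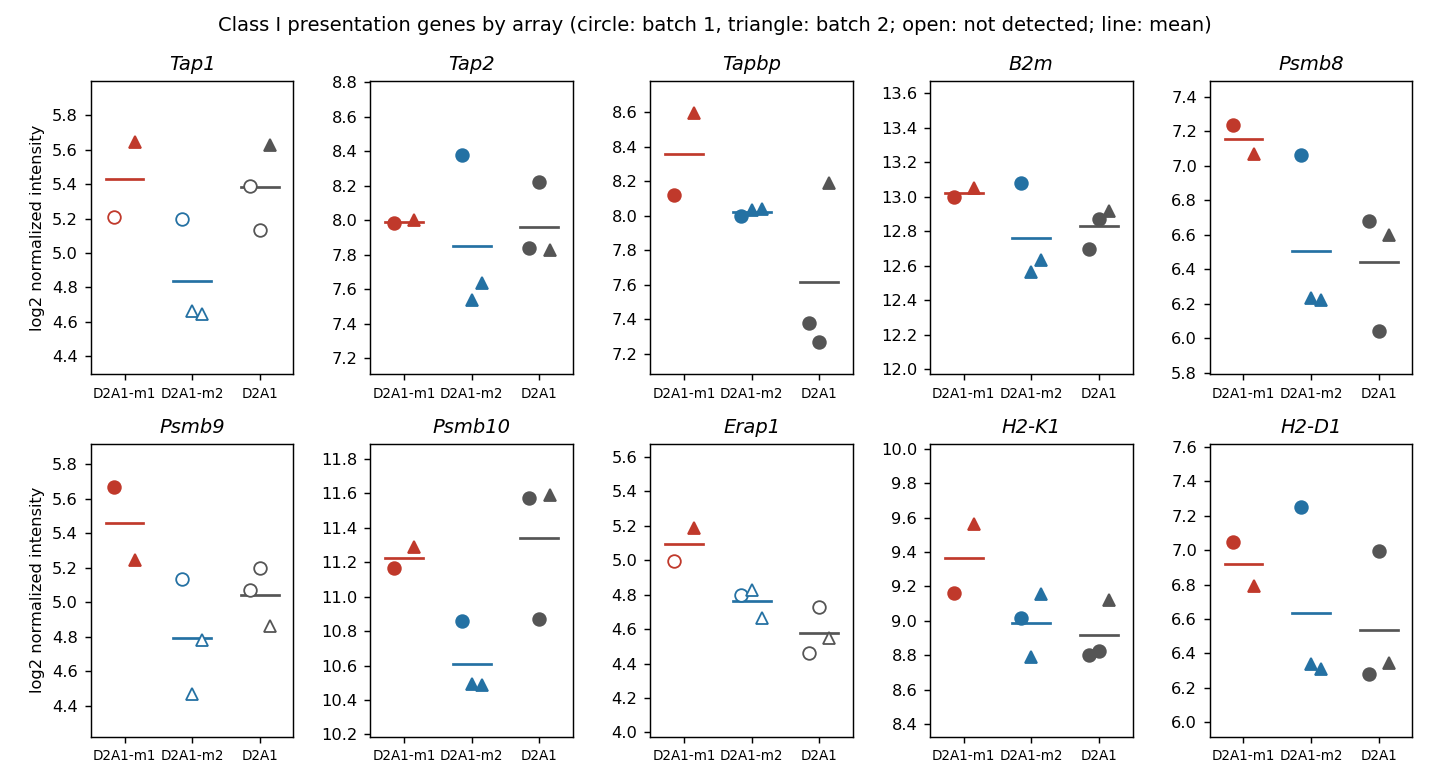
Log2 normalized intensity of each of the 10 genes (y axis, own scale per gene) on the 2 D2A1-m1, 3 D2A1-m2 and 3 D2A1 arrays. Circles are batch 1, triangles batch 2, open symbols arrays on which the probe was not detected, and lines the mean. D2A1-m2 replicate 1 (circle) lies above both other D2A1-m2 arrays for Tap1, Tap2, B2m, Psmb8, Psmb9, Psmb10 and H2-D1.

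Among the immunoproteasome subunits, Psmb8, which supplies the chymotrypsin-like site in place of Psmb5, was measured by 2 kept probes. The one used for the gene read 7.24 and 7.07 in D2A1-m1, 7.06, 6.24 and 6.22 in D2A1-m2, against 6.68, 6.04 and 6.60 in D2A1. Both D2A1-m1 arrays were above all others, and D2A1-m2 replicate 1 was near them while replicates 2 and 3 lay within the D2A1 range. The difference in D2A1-m1 against D2A1 was 0.76 (SE 0.26, 95% interval 0.17 to 1.34, adjusted p = 0.0652 by limma), and it missed the threshold. It was called without D2A1 replicate 3 (1.07, adjusted p = 0.0320) and without D2A1-m2 replicate 1 (0.70, adjusted p = 0.0440). The other probe, ILMN_1226683, read 10.80 and 11.18 in D2A1-m1, 10.63, 10.26 and 10.33 in D2A1-m2, against 10.08, 10.03 and 10.41 in D2A1. It passed the test in the fit over all 16462 kept probes, of which 12.3% were called in this comparison, at 1.74-fold higher in D2A1-m1 (log2 0.80, SE 0.18, adjusted p = 0.0141 by limma). This call held in 6 of 8 fits that each left out 1 array. It was lost without D2A1-m1 replicate 1 or replicate 2, and over the 8 fits the difference was 0.63 to 1.00 and the adjusted p at most 0.142. The probe was 0.74 higher within batch 1 and 0.77 higher within batch 2. In D2A1-m2 against D2A1 the Psmb8 gene differed by 0.15 (95% interval -0.39 to 0.69, adjusted p = 0.665), and the difference was 0.70 within batch 1 and -0.37 within batch 2.

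Psmb9, which replaces the caspase-like subunit Psmb6, read 5.67 and 5.24 in D2A1-m1, 5.13, 4.47 and 4.78 in D2A1-m2, against 5.07, 5.20 and 4.86 in D2A1. Its probe was detected on both D2A1-m1 arrays and on none of the other 6, so the fold is only a bound. D2A1-m1 averaged 5.46 ± 0.30 (SD, n = 2), D2A1-m2 4.79 ± 0.33 (n = 3) and D2A1 5.04 ± 0.17 (n = 3). Against D2A1-m2 it was at least 1.21-fold higher in D2A1-m1, with a fitted difference of 0.60 (SE 0.14, 95% interval 0.28 to 0.91, adjusted p = 0.0442 by limma). Against D2A1 it was at least 1.11-fold higher in D2A1-m1, with a fitted difference of 0.48 (adjusted p = 0.0371) that was under 1.5-fold. The difference between the sublines was alike in both batches (0.54 and 0.62). The call between the sublines was lost in 6 of the 8 fits that left out 1 array, namely each D2A1-m1 array, each D2A1-m2 array and D2A1 replicate 3, where the adjusted p reached 0.306. The difference itself stayed between 0.50 and 0.66.

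Psmb10, which replaces the trypsin-like subunit Psmb7, was the gene called in D2A1-m2. It read 11.17 and 11.28 in D2A1-m1, 10.86, 10.49 and 10.49 in D2A1-m2, against 11.57, 10.87 and 11.59 in D2A1. All D2A1-m2 arrays were lowest on the probe used for the gene, although D2A1-m2 replicate 1 and D2A1 replicate 2 differed by only the second decimal. It was 1.67-fold lower in D2A1-m2 than in D2A1 (log2 -0.74, SE 0.21, 95% interval -1.22 to -0.27, adjusted p = 0.0279 by limma), with differences of -0.36 within batch 1 and -1.10 within batch 2. Without D2A1 replicate 1 or 3, or without D2A1-m2 replicate 2 or 3, the call was lost, and over the 8 such fits the difference was -1.03 to -0.50 and the adjusted p at most 0.226. The other kept probe read 10.32, 10.31 and 10.38 in D2A1-m2, against 10.80, 10.23 and 11.11 in D2A1. D2A1 replicate 2 was its lowest array, so these lines overlapped. The difference on this other probe was -0.49 (adjusted p = 0.0744 over all probes by limma). In D2A1-m1 the gene differed from D2A1 by -0.12 (95% interval -0.64 to 0.39, adjusted p = 0.737), and it was 0.62 above D2A1-m2 (adjusted p = 0.164), called only without D2A1 replicate 2 among the fits that left out 1 array (0.60, adjusted p = 0.0289).

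The peptide transporter showed no called change. Tap1 read 5.21 and 5.65 in D2A1-m1, 5.20, 4.66 and 4.65 in D2A1-m2, against 5.39, 5.13 and 5.63 in D2A1. Its probe was detected only on D2A1-m1 replicate 2 and D2A1 replicate 3, so its values lie near the background of the array. The means of D2A1-m2 and D2A1, without the batch term, gave a value of 1.15-fold lower in D2A1-m2. The D2A1 mean included replicates 1 and 2, where the probe was not detected, so this value is not a firm bound. The fitted difference was -0.57 (SE 0.21, adjusted p = 0.0684 by limma), with -0.07 within batch 1, short of this value, and -0.97 within batch 2. It was called without D2A1-m2 replicate 1 (-0.99, adjusted p = 0.00732) and without D2A1 replicate 2 (-0.67, adjusted p = 0.0339), and was -0.35 without D2A1 replicate 3 (adjusted p = 0.402). D2A1-m1 differed from D2A1 by 0.04 (95% interval -0.47 to 0.54, adjusted p = 0.922). Against D2A1-m2 the line means gave a value of 1.19-fold higher in D2A1-m1. It is not a firm bound either, since D2A1-m1 replicate 1 did not detect the probe. The fitted difference was 0.60 (adjusted p = 0.167 by limma), with 0.01 within batch 1, short of this value, and 0.99 within batch 2. It was called without D2A1-m2 replicate 1 (0.97, adjusted p = 0.0304). Tap2, detected on every array, read 7.98 and 8.0 in D2A1-m1, 8.38, 7.54 and 7.64 in D2A1-m2, against 7.84, 8.22 and 7.83 in D2A1. The 3 lines overlapped, and the differences were 0.09 in D2A1-m1 (95% interval -0.36 to 0.53) and 0.01 in D2A1-m2 (-0.41 to 0.42), with adjusted p = 0.783 and 0.984 by limma.

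Tapbp, whose product tapasin edits the peptides that class I molecules take up, was the called gene in D2A1-m1. Its probe read 8.12 and 8.59 in D2A1-m1, 8.0, 8.03 and 8.04 in D2A1-m2, against 7.38, 7.27 and 8.19 in D2A1. D2A1 replicate 3 lay above D2A1-m1 replicate 1, so the arrays of these lines overlapped, but within each batch D2A1-m1 was higher (0.80 in batch 1 and 0.40 in batch 2). With the batch in the fit it was 1.59-fold higher in D2A1-m1 than in D2A1 (log2 0.67, SE 0.19, 95% interval 0.25 to 1.09, adjusted p = 0.0312 by limma). The second Tapbp probe was 0.51 higher (adjusted p = 0.0436 over all probes), under 1.5-fold. The call was lost in 6 of the 8 fits that left out 1 array, each of D2A1 replicates 1 and 2, D2A1-m1 replicates 1 and 2 and D2A1-m2 replicates 2 and 3, with differences of 0.57 to 0.92 and an adjusted p of at most 0.202. In D2A1-m2 the difference was 0.26 (95% interval -0.13 to 0.64, adjusted p = 0.292), being 0.68 in batch 1 and -0.16 in batch 2.

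Erap1, which trims peptides to the length that class I molecules hold, was detected only on D2A1-m1 replicate 2. It read 4.99 and 5.19 in D2A1-m1, 4.80, 4.82 and 4.67 in D2A1-m2, against 4.46, 4.73 and 4.55 in D2A1. Both D2A1-m1 arrays were highest, and the fitted difference from D2A1 was 0.51 (SE 0.14, adjusted p = 0.0282 by limma), under 1.5-fold and between values of which nearly all were at background, so it was not called and no fold is given. Without D2A1 replicate 2 it was 0.59 (adjusted p = 0.0105), past the fold threshold. The other 2 Erap1 probes were detected on no array.

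The heavy chains of the classical class I molecules followed a like order, with no call. H2-K1 read 9.16 and 9.56 in D2A1-m1, 9.02, 8.79 and 9.16 in D2A1-m2, against 8.80, 8.82 and 9.12 in D2A1. D2A1-m1 was above both other lines, though D2A1-m1 replicate 1 and D2A1-m2 replicate 3 were equal at this precision, and the difference from D2A1 was 0.41 (SE 0.16, 95% interval 0.06 to 0.77, adjusted p = 0.0897). D2A1-m2 and D2A1 differed by 0.00 (-0.33 to 0.33, adjusted p = 0.992). The second H2-K1 probe, detected on 4 arrays, differed by 0.17 in D2A1-m1 against D2A1 (adjusted p = 0.536 over all probes by limma), 0.45 within batch 1 and -0.26 within batch 2. The probe used for H2-D1 read 7.05 and 6.79 in D2A1-m1, 7.25, 6.34 and 6.31 in D2A1-m2, against 6.28, 6.99 and 6.34 in D2A1. D2A1-m2 replicate 1 was the highest array and D2A1 replicate 1 the lowest, and the lines overlapped, with a difference of 0.47 in D2A1-m1 (-0.05 to 0.98, adjusted p = 0.173) and 0.26 in D2A1-m2 (-0.21 to 0.74, adjusted p = 0.384). All 4 H2-D1 probes were positive in D2A1-m1 against D2A1, at 0.15 to 0.48. Heavy chain genes are alike in sequence and differ between mouse strains, and whether these probes also bind transcripts of other class I genes, or bind those of BALB/c cells less, was not tested.

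B2m, the light chain shared by all class I molecules, read 13.00 and 13.05 in D2A1-m1, 13.08, 12.56 and 12.63 in D2A1-m2, against 12.70, 12.87 and 12.92 in D2A1. D2A1-m1 lay above D2A1 by a narrow margin on this probe, and D2A1-m2 replicate 1 was the highest array of all while replicates 2 and 3 were the lowest. On the other kept probe D2A1-m1 read 13.06 and 12.89 against 12.77, 12.98 and 12.95 in D2A1, so the 2 lines overlapped. Its difference was 0.11 (adjusted p = 0.657 over all probes by limma), 0.18 within batch 1 and -0.06 within batch 2. On the probe used for the gene the difference was 0.21 in D2A1-m1 (95% interval -0.16 to 0.59, adjusted p = 0.382) and -0.03 in D2A1-m2 (-0.38 to 0.31, adjusted p = 0.896). The intervals thus leave room for changes of B2m of up to 0.59 in D2A1-m1 on the log2 scale.

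**Figure D2:**
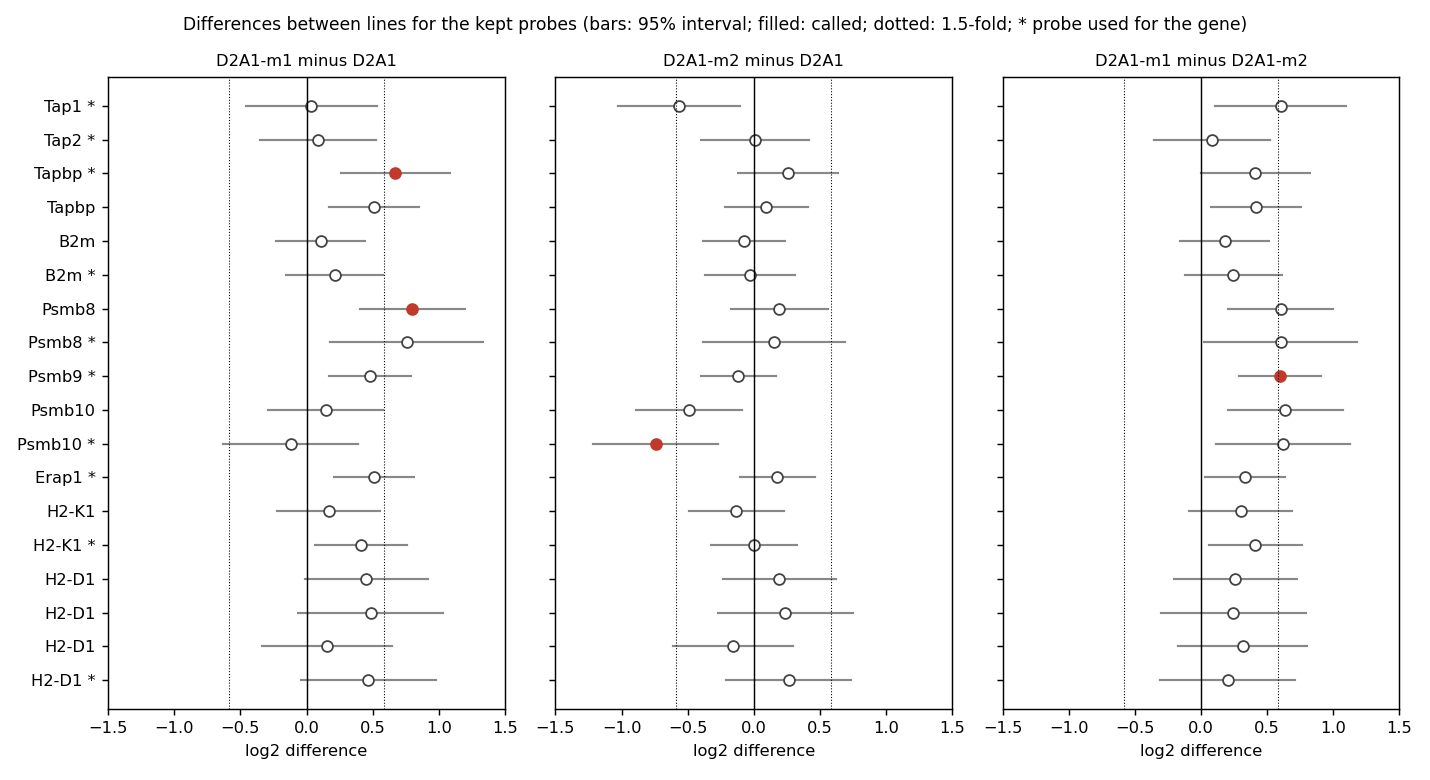
Log2 difference (x axis) of each of the 18 kept probes in D2A1-m1 minus D2A1, D2A1-m2 minus D2A1 and D2A1-m1 minus D2A1-m2, with 95% intervals from the fit over all probes. Filled points are probes called there (a Tapbp and a Psmb8 probe in D2A1-m1, a Psmb10 probe in D2A1-m2 and Psmb9 between the sublines, where 12.3%, 13.1% and 3.34% of all probes were called), dotted lines mark 1.5-fold, and an asterisk marks the probe used for the gene.

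Probes of 1 gene moved together over the 8 arrays for most genes. As a description, Pearson's r between the kept probes was 0.94 for Tapbp, 0.90 for B2m, 0.83 for Psmb10, 0.79 for Psmb8 and 0.64 to 0.92 for H2-D1, and 0.29 for H2-K1, whose second probe was detected on 4 arrays. Between genes r varied widely after the batch was removed. It was highest for Tapbp and Psmb8 (0.93), Tap1 and Psmb10 (0.91) and Psmb9 and H2-K1 (0.91). The probes of Tap1 and Psmb9 were detected on only 2 arrays. It was near 0 for Tap2 and Psmb10 (0.09) and Tap1 and Erap1 (0.11), and lowest for Psmb10 and H2-D1 (-0.25). Pairs of other genes were not computed for comparison. All these points share the same 8 arrays and 3 lines.

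The batches gave different pictures of D2A1-m2. Within batch 1, 7 of the 10 genes were higher in D2A1-m2 than in D2A1, with a median of 0.25. Within batch 2 only Erap1 was, at 0.20, and 9 were lower, with a median of -0.24. The medians of all genes in these batches were 0.01 and 0.00. D2A1-m1 was above D2A1 for 7 genes in batch 1 (median 0.38) and for 9 in batch 2 (median 0.39), and above D2A1-m2 for 7 in batch 1 (median 0.14) and for all 10 in batch 2 (median 0.57). Without D2A1-m2 replicate 1, 1 of 10 differences of D2A1-m2 from D2A1 was positive, with a median of -0.22, and all 10 between the sublines were, with a median of 0.61. A term for the line by the batch had an unadjusted p under 0.05 in D2A1-m2 against D2A1 for Tap1, Tapbp and Psmb8, whose differences in batch 2 minus those in batch 1 were -0.90, -0.83 and -1.07 (log2), but every adjusted p of the 10 genes was 0.999 or more by limma. Over all 9017 genes 317 had such an unadjusted p and 0 an adjusted p under 0.05. In batch 1 only 1 array measured each subline, so this array and the batch cannot be told apart.

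**Figure D3:**
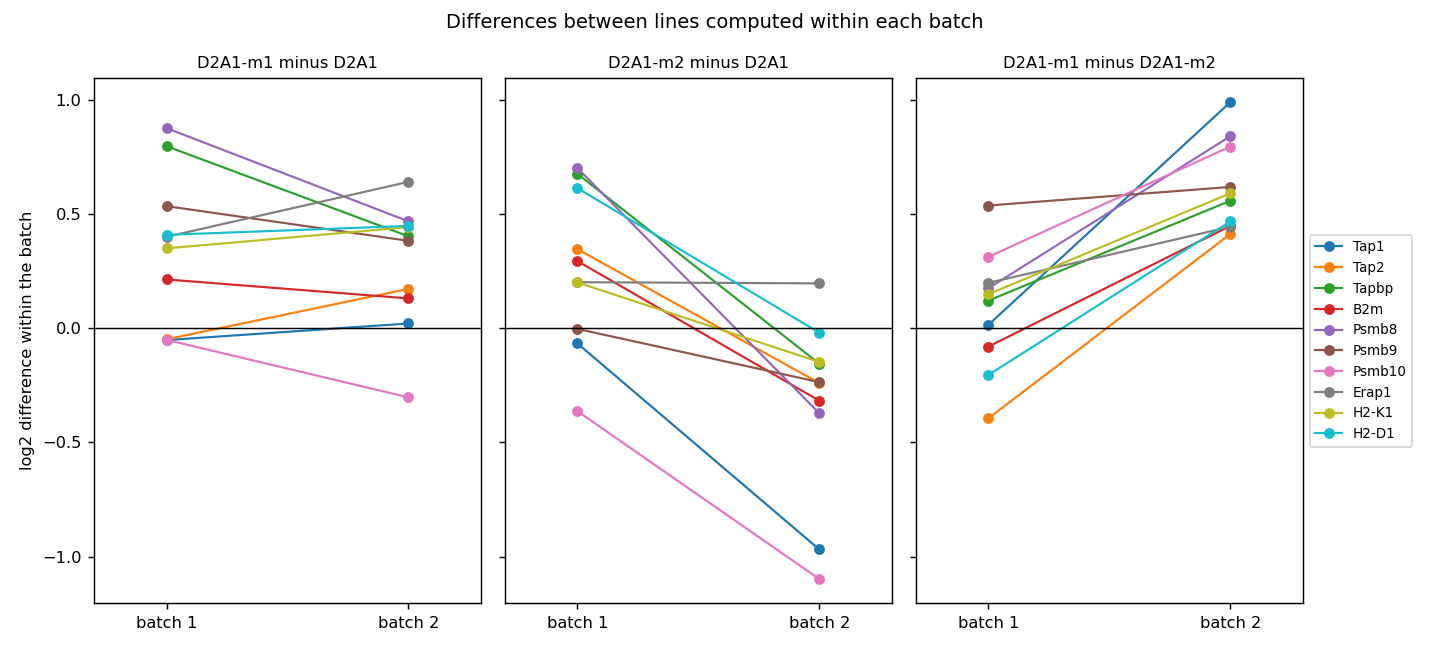
Log2 difference between lines (y axis) computed within batch 1 and within batch 2, 1 line per gene. Differences of D2A1-m1 from D2A1 have medians of 0.38 and 0.39, while those of D2A1-m2 from D2A1 lie mostly above 0 in batch 1 (median 0.25) and mostly below it in batch 2 (median -0.24).

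The mean of the standardised levels of the 10 genes, with the batch removed, was 0.64 and 1.28 in D2A1-m1, 0.44, -0.91 and -0.64 in D2A1-m2, against -0.65, -0.38 and 0.22 in D2A1. D2A1-m1 arrays were highest, and the D2A1-m2 and D2A1 arrays overlapped. This mean includes Psmb9 and Erap1, which passed the detection filter only through D2A1-m1 arrays, so the order is given as a description. It was not computed without them. The 5 genes outside the set whose levels followed this mean most closely were Isg20, an interferon-induced exonuclease (r = 0.97 over 8 arrays), the nonclassical class I gene H2-Q6 (0.96), Uba7, the activating enzyme of the ubiquitin-like Isg15 (0.95), Lgals3bp, a secreted glycoprotein (0.95), and Gm8909 (0.95). Of these Isg20 (log2 0.68, adjusted p = 0.0367), Uba7 (0.82, adjusted p = 0.0484) and Lgals3bp (1.02, adjusted p = 0.0298) were called higher in D2A1-m1 than in D2A1, and Uba7 was also called higher than in D2A1-m2 (1.13, adjusted p = 0.0401). The likeness was computed on the same arrays and was used to pick them. The Isg20 call was lost in 5, the first Uba7 call in 6 and the Lgals3bp call in 4 of the 8 fits that left out 1 array, without either D2A1-m1 array in each case and further without D2A1 replicate 1 (all 3), D2A1 replicate 2 (Uba7), D2A1-m2 replicate 2 (Isg20 and Uba7) and D2A1-m2 replicate 3 (all 3), with adjusted p of at most 0.206, 0.220 and 0.217. The Uba7 call between the sublines was lost without either D2A1-m1 array, D2A1-m2 replicate 2 or D2A1-m2 replicate 3 (adjusted p of at most 0.313).

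Other heavy chains were set beside the 10 genes. Of 28 class I and class I-like genes 12 were tested, with medians of 0.38 in D2A1-m1 against D2A1, -0.14 in D2A1-m2 against D2A1 and 0.48 between the sublines, and 10, 4 and 10 of them were positive. In D2A1-m1 1 was called higher and 1 lower, in D2A1-m2 1 higher and 1 lower, and none between the sublines, against 14.6%, 16.2% and 4.27% of all genes called. Between the sublines 7 of 12 had an unadjusted p under 0.05 by limma, against 20.7% of all genes. H2-M3, which presents formylated peptides, read 10.04 and 10.70 in D2A1-m1, 10.32, 10.39 and 10.56 in D2A1-m2, against 9.55, 9.64 and 9.79 in D2A1. Both sublines were above D2A1 on every array, by 0.66 in D2A1-m1 (adjusted p = 0.0140) and 0.66 in D2A1-m2 (adjusted p = 0.00777). The first call was lost without D2A1 replicate 3 or D2A1-m1 replicate 2 (adjusted p of at most 0.164) and the second without D2A1 replicate 3 or D2A1-m2 replicate 1 (at most 0.0811). Cd1d1, which presents lipids, was lower in D2A1-m1 (log2 -0.82, adjusted p = 0.00991, lost without either D2A1-m1 array, at most 0.0920). H2-T24 was at least 1.27-fold lower in D2A1-m2 (adjusted p = 0.0139, lost without D2A1 replicate 3, D2A1-m2 replicate 2 or D2A1-m2 replicate 3, at most 0.139). Its probe was detected on 2 arrays, both of D2A1, so this call is given as a description.

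The proteasome subunits that the immunoproteasome replaces, and the rest of the constitutive core, held no called gene. Of 14 core genes 11 were tested and none passed the test in any comparison, with medians of 0.09, 0.00 and 0.08. An unadjusted p under 0.05 by limma was reached by 3, 4 and 1 of them, against 36.6%, 40.7% and 20.7% of all genes. Psmb5 differed by -0.38 in D2A1-m1 (adjusted p = 0.0509) and -0.30 in D2A1-m2 (adjusted p = 0.0708), Psmb6 by 0.07 and -0.04, and Psmb7 by -0.18 in D2A1-m1 and -0.43 in D2A1-m2 (adjusted p = 0.0399, under 1.5-fold). The interferon-induced activator subunits Psme1 and Psme2 differed from D2A1 by 0.05 and -0.21 in D2A1-m1. In D2A1-m2 the difference of Psme1 was -0.48 (adjusted p = 0.0254) and that of Psme2 -0.51 (adjusted p = 0.0204), both under 1.5-fold. None of the 5 activator and maturation genes was called (0, 2 and 1 at an unadjusted p under 0.05, against the same shares of all genes).

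Of 8 peptide loading and chaperone genes 6 were tested. The protein disulfide isomerase P4hb read 12.40 and 12.62 in D2A1-m1, 12.74, 12.98 and 13.00 in D2A1-m2, against 12.17, 12.26 and 12.23 in D2A1. It was highest in D2A1-m2 and was the 1 gene of this list called in any comparison, 0.63 higher in D2A1-m2 than in D2A1 (adjusted p = 0.00385, 0.0509 without D2A1 replicate 3). Of 5 tested peptidases of the cytosol and vesicles, Blmh was called lower in D2A1-m1 (log2 -0.67, adjusted p = 0.00381, 0.0921 without D2A1-m1 replicate 1). No peptidase was called in the other comparisons (1 and 2 at an unadjusted p under 0.05, against 40.7% and 20.7% of all genes).

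Few regulators of class I transcription were called. Of 34 genes 26 were tested, of which 2 were called higher and 1 lower in D2A1-m1, 2 higher and 1 lower in D2A1-m2 and none between the sublines (7 at an unadjusted p under 0.05, against 20.7% of all genes). Over all genes 14.6%, 16.2% and 4.27% were called, so these shares were not above the background. Irf1, an interferon-induced activator of class I genes, read 8.97 and 9.40 in D2A1-m1, 9.10, 9.05 and 9.41 in D2A1-m2, against 8.42, 8.32 and 8.92 in D2A1. Every subline array was above every D2A1 array, but the differences, 0.57 in D2A1-m1 (adjusted p = 0.0298) and 0.51 in D2A1-m2 (adjusted p = 0.0271), were under 1.5-fold and not called. Nlrc5 was detected on 1 array, with differences of -0.01 (D2A1-m1) and -0.23 (D2A1-m2) from D2A1.

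Signalling genes among the regulators were called. Socs3, a feedback inhibitor of cytokine signalling, read 9.17 and 9.10 in D2A1-m1, 8.53, 8.34 and 8.10 in D2A1-m2, against 8.10, 7.15 and 7.65 in D2A1. It was higher in D2A1-m1 by 1.52 (adjusted p = 0.00287), kept in all 8 fits that left out 1 array, and in D2A1-m2 by 0.73 (adjusted p = 0.0393), lost in all of them except that without D2A1 replicate 1, up to 0.226. The kinase Jak1, which interferon receptors use, was higher by 0.76 in D2A1-m1 (adjusted p = 0.00602, 0.125 without D2A1-m1 replicate 1) and by 0.86 in D2A1-m2 (adjusted p = 0.00192, kept in all 8). Ifnar2, a chain of the type I interferon receptor, was lower in D2A1-m1 than in D2A1 by at least 1.39-fold (adjusted p = 0.0153, lost without either D2A1-m1 array, at most 0.153). Stat2, which carries the type I interferon signal, was lower by 0.61 on the log2 scale in D2A1-m2 (log2 -0.61, adjusted p = 0.0271, lost without D2A1 replicate 3 or D2A1-m2 replicate 2, at most 0.171).

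By fitted difference, interferon-stimulated genes lay mostly lower in D2A1-m2 than in either other line. The list of 42 genes, 35 of them tested, also holds Psmb8, Psmb9 and Tap1. In D2A1-m1 4 were called higher and 1 lower than in D2A1, with a median of 0.12, a share near the 14.6% of all genes called. In D2A1-m2 none was called higher and 11 lower, with a median of -0.52, against 7.34% of all genes called lower, and 29 of 35 differences were negative. An unadjusted p under 0.05 by limma was reached by 19 of 35 in either direction, against 40.7% of all genes. Between the sublines 6 were higher and 1 lower in D2A1-m1, with a median of 0.67, against 2.00% of all genes called higher, and 32 of 35 differences were positive. The D2A1-m2 arrays lay wholly below those of D2A1 for 6 of 35 genes and wholly above for 1, and 18.0% of all genes lay wholly below. For 21 of 35 the D2A1-m1 arrays lay wholly above those of D2A1-m2, against 14.4% of all genes, and for 1 wholly below. By array the lower level in D2A1-m2 was thus plain only against D2A1-m1. The 6 genes called higher between the sublines include Psmb9, which was kept only through D2A1-m1 arrays. The 21 that lay wholly above include Psmb8, Psmb9 and Tap1. Counts without these genes of the set were not computed. The guanylate binding protein Gbp2 read 10.003 and 10.76 in D2A1-m1, 9.44, 9.57 and 9.57 in D2A1-m2, against 9.18, 7.85 and 10.02 in D2A1, with a difference of 1.23 in D2A1-m1 (adjusted p = 0.0491). The antiviral gene Rsad2 read 9.30 and 9.73 in D2A1-m1, 8.91, 9.26 and 9.34 in D2A1-m2, against 10.92, 9.36 and 11.52 in D2A1, with a difference of -1.68 in D2A1-m2 (adjusted p = 0.00992, 0.0980 without D2A1 replicate 3). The D2A1 arrays of these genes were themselves far apart, with replicate 2 lowest for both. The other calls in D2A1-m1 were Lgals3bp, given above, the nucleic acid sensor Zbp1 (0.93, adjusted p = 0.0365), the GTPase Ifi47 (0.90, adjusted p = 0.0272) and, lower, Oasl1 (-1.19, adjusted p = 0.0279).

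In D2A1-m2 the chemokine gene Cxcl10 (-1.40, adjusted p = 0.0470) and Oasl1 (-1.04, adjusted p = 0.0280) were among the lower genes, and between the sublines Ifit3 (1.69, adjusted p = 0.0284) and Zbp1 (1.46, adjusted p = 0.0216) were higher in D2A1-m1. Each of these calls depended on single arrays. In D2A1-m1 against D2A1 those of Gbp2, Ifi47, Zbp1 and Oasl1 were lost without D2A1-m1 replicate 2 and, all but Zbp1, without replicate 1. They were also lost without D2A1-m2 replicate 2 (Gbp2, Ifi47 and Zbp1), D2A1-m2 replicate 3 (Gbp2, Zbp1 and Oasl1), D2A1 replicates 1 and 3 (Zbp1 and Oasl1) and D2A1 replicate 2 (Zbp1), with adjusted p of at most 0.260, 0.162, 0.309 and 0.232. In D2A1-m2 those of Cxcl10 and Oasl1 were lost without D2A1 replicate 1, D2A1 replicate 3, D2A1-m2 replicate 2 or D2A1-m2 replicate 3, and that of Cxcl10 also without any D2A1-m1 array or D2A1-m2 replicate 1 (at most 0.358 and 0.220). Between the sublines both were lost without D2A1-m1 replicate 2, D2A1-m2 replicate 2 or D2A1-m2 replicate 3, and Ifit3 also without D2A1-m1 replicate 1 (at most 0.272 and 0.286).

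**Figure D4:**
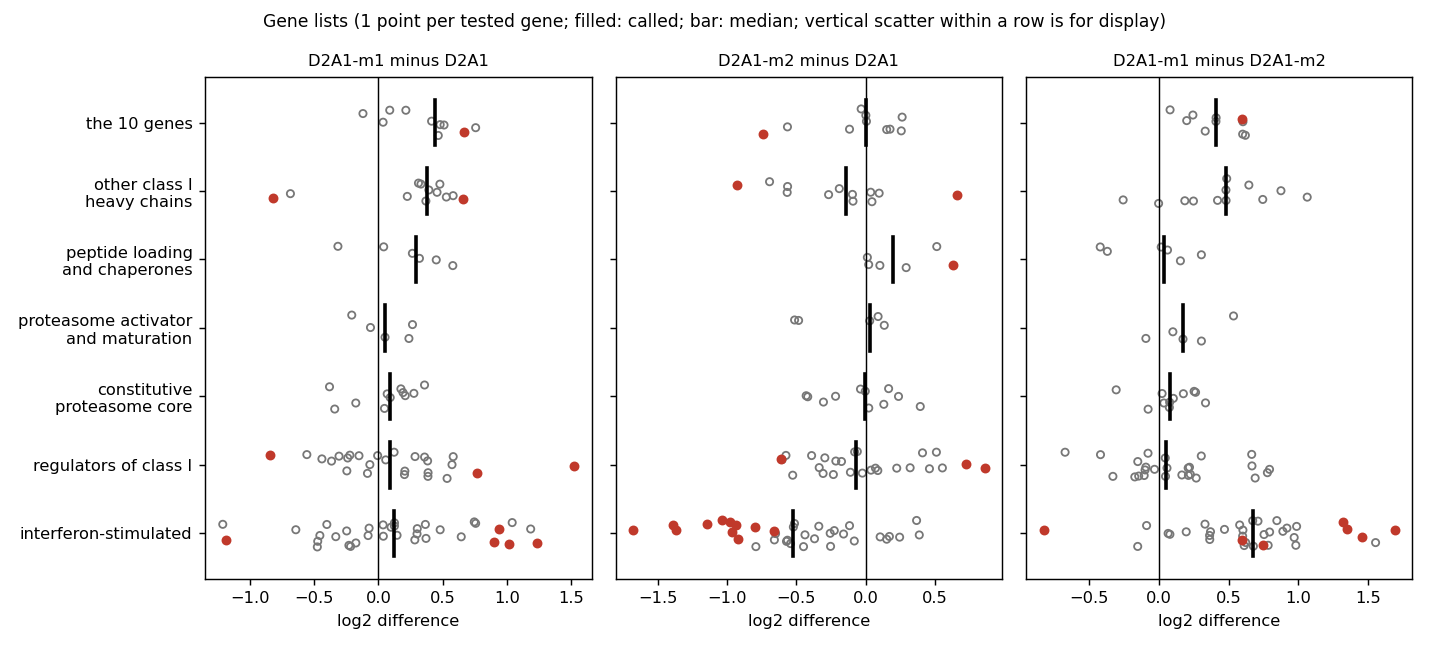
Log2 difference (x axis) of each tested gene of the 10 and of the related lists in the 3 comparisons, with called genes filled and the median as a bar. The interferon-stimulated genes have medians of 0.12, -0.52 and 0.67, and the constitutive proteasome core lies close to 0 with no gene called.

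The MHC class II pathway, which presents peptides from outside the cell, was mostly not measured above background. Of 12 genes only H2-DMa and Ifi30 were detected, while H2-Aa, H2-Ab1, Cd74 and the transactivator Ciita were not. Ifi30, a lysosomal thiol reductase, read 8.31 and 8.01 in D2A1-m1, 8.39, 8.11 and 8.06 in D2A1-m2, against 9.41, 9.51 and 9.63 in D2A1. It was lower in both sublines, with a log2 difference of -1.33 in D2A1-m1 (adjusted p = 0.000365) and of -1.29 in D2A1-m2 (adjusted p = 0.000277), and kept its call in all 8 fits that left out 1 array. H2-DMa was 0.76 lower in D2A1-m1 than in D2A1-m2 (log2 -0.76, adjusted p = 0.0442), a call lost without D2A1 replicate 3 and without any D2A1-m1 or D2A1-m2 array (at most 0.312).

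The labelled cell type was checked with marker genes. Of 14 mammary carcinoma markers 6 were detected (Krt8, Krt18, Krt7, Cldn7, Erbb2 and Vim), and Epcam, Cdh1, Krt19, Krt5 and Krt14 were not detected on any array. Of the 6, 2 were positive and 4 negative in each subline against D2A1. Krt8, an epithelial keratin, was 3.03 higher in D2A1-m1 and 3.26 higher in D2A1-m2 than in D2A1 on the log2 scale, while Vim, a mesenchymal filament gene, was called lower in D2A1-m1 (-0.61, adjusted p = 0.0112) and the keratin gene Krt18 lower in D2A1-m2 (-1.004, adjusted p = 0.00376). The Vim call was lost without D2A1 replicate 2 or either D2A1-m1 array (adjusted p of at most 0.162). Since the sublines were recovered from lungs and leukocytes express class I genes strongly, leukocyte markers were read beside these results. Of 22 leukocyte genes 4 were detected (Cd14, Laptm5, Coro1a and Lyz1), and the defining genes Ptprc, Cd3e, Itgam, Csf1r and Tyrobp were not detected on any array. The summed level of the 4 was 475 to 799 in D2A1-m1, 388 to 525 in D2A1-m2 and 185 to 352 in D2A1 (linear normalized intensity). Most of this sum was Cd14, which read 8.56 and 9.38 in D2A1-m1, 7.90, 8.35 and 8.55 in D2A1-m2, against 7.68, 6.89 and 8.14 in D2A1 (log2). Laptm5, Coro1a and Lyz1 read at most 6.42 on any array. Coro1a was at least 1.69-fold higher in D2A1-m1 and at least 1.39-fold higher in D2A1-m2 than in D2A1, Cd14 was 1.28 higher in D2A1-m1 on the log2 scale, and Laptm5 was at least 1.49-fold higher in D2A1-m2 than in D2A1 and at least 1.56-fold lower in D2A1-m1 than in D2A1-m2. Lyz1 was also called higher in D2A1-m2 than in D2A1 (fitted 0.70, adjusted p = 0.00278), with both lines near background. Coro1a was detected on 5 arrays, none of them of D2A1, Laptm5 on 3, all of D2A1-m2, and Lyz1 on 1. Coro1a and Laptm5 thus passed the detection filter only through lines where they are high. Their calls, and that of Lyz1, are given as descriptions. The sum of the 3 detected of 10 fibroblast genes was 185 to 206 in D2A1-m1, 142 to 189 in D2A1-m2 and 116 to 125 in D2A1. Of these Pdgfra was called higher in D2A1-m1, against D2A1 (0.77, adjusted p = 0.00918) and against D2A1-m2 (0.89, adjusted p = 0.0189), and Pdgfrb (0.95, adjusted p = 0.0123) and Col1a1 (fitted 0.61, adjusted p = 0.0225) were called higher in D2A1-m2 than in D2A1. Col1a1 was detected on 1 array, so its call is given as a description. Lung epithelial and endothelial genes were detected for 2 of 10 each, and their defining genes Sftpc, Scgb1a1, Pecam1 and Cdh5 were not. Of those detected Abca3 was called lower in D2A1-m2 than in D2A1 (-0.84, adjusted p = 0.00267), and Flt1 was at least 1.44-fold lower in D2A1-m1 than in D2A1 (adjusted p = 0.00185) and at least 1.22-fold lower than in D2A1-m2 (adjusted p = 0.0107). The Pdgfra and Flt1 calls against D2A1 were lost without D2A1-m1 replicate 1 (adjusted p = 0.162 and 0.0636) and those between the sublines without any 1 of the D2A1-m1 or D2A1-m2 arrays (at most 0.207 and 0.137). The Pdgfrb call was lost without D2A1 replicate 3 (0.125) and that of Col1a1 without D2A1 replicate 3, D2A1-m2 replicate 1 or D2A1-m2 replicate 3 (at most 0.184). The part of these marker genes in the differences of the class I genes was not tested.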

How the data were processed

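RNA from 8 cultures was labelled and hybridised to 1-colour Illumina arrays. The authors deposited an intensity per probe as exported, neither background-subtracted nor normalized, with a detection p-value against each array's negative control beads. The authors also deposited processed values near a log2 scale (lumi, version not given, with variance stabilisation, robust spline normalization and ComBat), whose exact scale is not stated and whose array medians were 7.83 to 7.84. These served as an alternative. No source used here gives the array's annotation build, so probes are given no coordinates, and promoter windows are those of RefSeq on GRCm38.p6. A further motif that was counted is not reported here.

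The neqc function of limma 3.58.1 in R 4.3.3 (normexp background, offset 16, quantile normalization) gave log2 values from the intensities. Of 16462 kept probes 14107 named 1 gene. The probe of widest interquartile range stood for a gene. A linear model (lmFit, eBayes) had terms for line and batch, with 4 residual and 5.23 prior degrees of freedom, and p-values were adjusted by Benjamini-Hochberg over 9017 genes, or over all kept probes. In both fits an adjusted p under 0.05 and at least 1.5-fold was called. Where no array of the dimmer line detected the probe, the fold is a bound, against the higher of the lowest detected level and the probe's own. Bounds were computed from the means of the lines without the batch term, so they need not hold within each batch. The mean of the brighter line included any of its arrays without detection, and in that case the bound is not firm. P-values measure the spread between these cultures, and the 8 arrays limit the precision.

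The 10 genes and all lists were chosen with earlier results of these data known. All 10 genes were named. Of each list every called gene was named where 5 or fewer were called, otherwise those of largest difference, together with the counterparts Psmb5, Psmb6 and Psmb7, the regulators Nlrc5 and Irf1 and the 5 genes of most alike pattern. Values and counts were recomputed under 17 alternatives, the methods' t-test among them (unadjusted p under 0.001 and at least 1.5-fold), and with each array left out.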

Additional observations from a re-analysis of the deposited data

How the results depend on the processing

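With 2 or 3 arrays a line, single arrays and settings decided most calls of the 10 genes. The count of called genes, 1 in each comparison, was 0 in all 3 within batch 1 alone, without the detection filter and by the methods' t-test at its own threshold and after Benjamini-Hochberg. It was 0 in D2A1-m1 against D2A1 and between the sublines, but 1 (Psmb10) in D2A1-m2 against D2A1, without background correction, with an offset of 50, with the authors' processed values and without a batch term. In D2A1-m1 against D2A1 it was also 0 within batch 2 alone and 2 (Tapbp and Psmb8) with median scaling or with the probe of highest mean. Within batch 2 alone it was 2 in D2A1-m2 against D2A1 (Tap1 and Psmb10) and 3 between the sublines (Tap1, Psmb8 and Psmb10). Between the sublines it was 0 with a median shift (chosen after seeing the data), batch as a random block, probes detected on at least 3 arrays (which leaves out Psmb9), a trended prior and the replicate block used instead of the batch. It ranged from 0 to 2 in each comparison when 1 array was left out. Tapbp lost its call in 16 of 25 alternatives, Psmb10 in 8 of 25 and Psmb9 in 19 of 24, with no change of sign. The cause was not tested.

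Deviations of same-numbered replicates had r of -0.30 to 0.71 over 7 pairs, positive in the 5 pairs of the same batch, and -0.43 to 0.32 with the batch removed, so the numbers were not taken to pair the samples. With the replicate block beside the batch 1 gene was called in each comparison, Psmb9 in place of Tapbp in D2A1-m1, Psmb10 in D2A1-m2 and Psmb9 between the sublines.

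Among the recomputed values of the 10 genes 45 changed sign, none of them a difference that was called. Each is given with the setting, and for genes whose sign turned when 1 array was left out the range over those 8 fits follows. In D2A1-m1 against D2A1 Tap1 was -0.0292 with a median shift, -0.0518 in batch 1 and -0.117 with the block and batch (left out, -0.202 to 0.322). Tap2 was -0.0482 in batch 1 and -0.0587 with the block (-0.146 to 0.368), and Psmb10 was 0.0197 with median scaling (-0.352 to 0.0874). In D2A1-m2 against D2A1 Tap2 was -0.0068 with a median shift, -0.0186 with the authors' values, -0.112 without a batch term and with the block, -0.0266 with a random block and -0.24 in batch 2 (-0.303 to 0.116). Tapbp was -0.155 in batch 2 (-0.0427 to 0.551), and B2m was 0.0581 with median scaling and 0.294 in batch 1 (-0.294 to 0.143). Psmb8 was -0.372 in batch 2 and -0.0611 with the block and batch (-0.256 to 0.511), Erap1 -0.0976 without the filter, H2-K1 -0.00487 with a median shift and -0.148 in batch 2 (-0.174 to 0.121) and H2-D1 -0.0195 in batch 2 (-0.0307 to 0.422). Between the sublines in batch 1 Tap2 was -0.394 (-0.199 to 0.349), B2m -0.0805 and H2-D1 -0.205. Median scaling moved the median of all genes by up to 0.12, and the share of calls that were higher was then 73.4% in place of 53.0% in D2A1-m1, 68.0% in place of 54.7% in D2A1-m2 and 56.6% in place of 46.8% between the sublines. Over all genes 1313, 1462 and 385 were called in the 3 comparisons, against 332, 309 and 89 with the authors' processed values, 168, 122 and 0 in batch 1 alone, 212, 483 and 65 by the methods' t-test at an unadjusted p under 0.001 and 509, 1116 and 21 after Benjamini-Hochberg. Without a batch term 876, 1291 and 70 were called. Signal over background limits Tap1, Psmb9 and Erap1, whose probes were detected on 1 or 2 arrays.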
